A study of Mus musculus with 8 samples.

Results

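The genes described here carry pyruvate into mitochondria, turn the tricarboxylic acid (TCA) cycle and pass glutamine-derived carbon into and out of it. A list of 34 enzymes, subunits and regulators was set, and 31 of them matched a named gene on the array, out of 19505 genes with a symbol. Mpc2, Gls2 and Glud1 had no match and are not analysed here, so glutaminolysis is represented by its transaminases Got1 and Got2. Each matched gene had a single named probe set.

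Pyruvate made by glycolysis enters mitochondria through a carrier and is turned into acetyl-CoA by the pyruvate dehydrogenase complex, which kinases switch off and phosphatases switch on. The cycle joins acetyl-CoA to oxaloacetate to make citrate and then strips electrons from it for the respiratory chain, and glutamate feeds it at the level of oxoglutarate. T cells stimulated through their receptor and CD28 are known to raise glucose and glutamine use, and to draw citrate and aspartate from the cycle for the synthesis of lipids and nucleotides. Several steps have a mitochondrial and a cytosolic isoenzyme, which together move reducing equivalents between the compartments.

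Expression was measured on 8 one-colour arrays of splenic T cells from 4 male wild-type C57BL/6 mice of an age not given in the sources used here. Cells of the CD4 and the CD8 lineage were isolated together, activated with microbeads against CD3 and CD28, and cultured for 48 h. The 4 control arrays came from cells given PBS, the vehicle, and the other 4 from cells given human beta-defensin-2 (hBD-2), a cationic antimicrobial peptide, at 60 µL/mL, a volume per volume that leaves the mass concentration unknown. The labels tie no array to a mouse, so p-values measure the spread between these arrays.

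Values are the authors' log2 expression values, shown as mean ± SD over the 4 arrays of a group. Fold changes are log2 differences, hBD-2 minus PBS, and a gene is said to have fallen or risen where limma's Benjamini-Hochberg adjusted p over all 19505 genes was below 0.05. Array medians lay between 5.30 and 5.42. The interquartile range of an array was 3.64 to 3.76 log2 units with PBS and 3.45 to 3.64 with hBD-2. All 10 T cell markers (Cd3d, Cd3e, Cd3g, Cd247, Cd2, Cd5, Cd28, Cd4, Cd8a and Cd8b1) were clearly present, with a mean level per array of 10.3 to 10.4 in both groups, and none of them passed the threshold.

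Of the 31 measured genes, 6 fell with hBD-2 and none rose. Idh1, Cs, Sdhd, Mdh1, Mdh2 and Got1 fell, between 1.34-fold (Mdh1) and 2.32-fold (Idh1). Over all genes, 4.46% changed, 3.66% falling and 0.800% rising. Differences below 0 were found for 28 of the 31 genes, against 46.1% of all genes, and the median log2 fold change was -0.34, against 0.02 for all genes. The groups did not overlap in 16 genes that were lower with hBD-2 and in 1 that was higher (Pdk2), where over all genes 14.9% did not overlap, 9.36% lower and 5.51% higher. At an unadjusted limma p below 0.05, 20 genes were lower and 1 was higher, and over all genes these shares were 12.8% and 9.44%.

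How many of the genes were called depended on which genes were tested and on single arrays. A further 11 genes, 10 lower and 1 higher, had a limma adjusted p between 0.05 and 0.1. With testing limited to genes whose mean level reached the percentile 40, 16 of 30 fell and Pdk2 rose, while 10.2% of all genes so tested fell and 2.98% rose. With a variance trend in limma, 17 fell and Pdk2 rose, where 7.99% of all genes fell and 2.43% rose. When PBS replicate 1, 2, 3 or 4 was left out, the falling genes numbered 1, 2, 7 and 2 in that order. Of all genes, 1.43%, 1.53%, 2.81% and 1.67% fell in these fits. When hBD-2 replicate 1, 2, 3 or 4 was left out, the falling genes of the list numbered 11, 8, 5 and 4. The shares of all genes that fell in these fits were 5.51%, 2.68%, 1.74% and 1.605%. Leaving out hBD-2 replicates 3 and 4 together left 1 falling gene of the list, where 0.574% of all genes fell. Idh1 was the 1 gene of the list that kept its call in all 17 of these alternatives, but it lost it with 2 arrays in each group (given with the B cell markers).

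**Figure D1:**
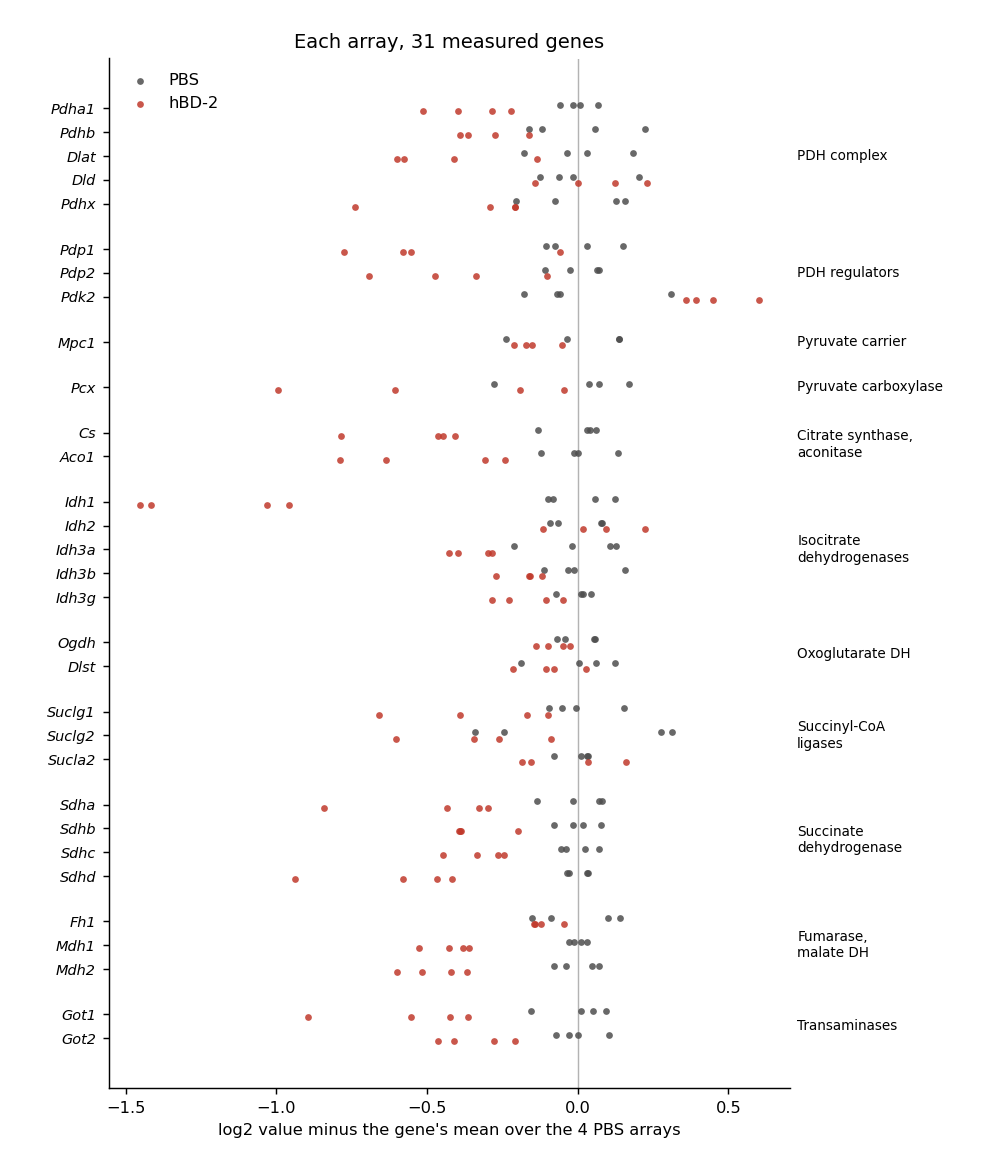
The 31 measured genes, grouped by enzyme complex, with 1 point for each of the 8 arrays (grey, PBS; red, hBD-2) as log2 value minus the gene's mean over the 4 PBS arrays. The hBD-2 points lie to the left of the PBS points without overlap in 16 genes, and to the right in Pdk2.

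**Figure D2:**
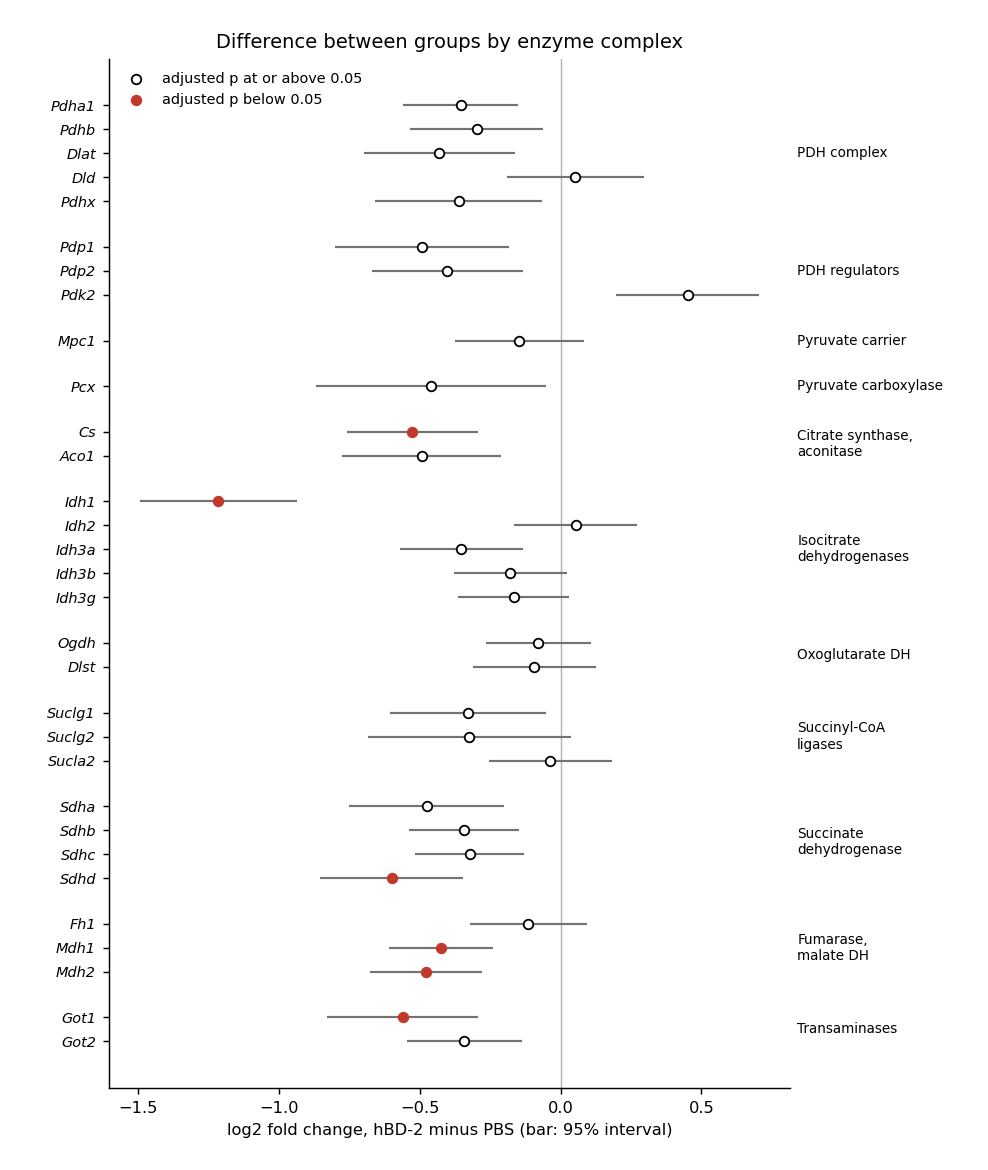
Log2 fold changes, hBD-2 minus PBS, with 95% intervals from the limma fit, for the same 31 genes by complex. The 6 filled points are the genes that fell, from Mdh1 (-0.42) to Idh1 (-1.22), and the interval included 0 in 10 genes.

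The gate by which pyruvate enters the cycle held no gene that passed the threshold. Mpc1, a subunit of the mitochondrial pyruvate carrier, was at 8.28 ± 0.178 with PBS and 8.14 ± 0.0688 with hBD-2, and its 95% interval on the log2 scale ran from -0.38 to 0.08. In the pyruvate dehydrogenase complex 4 of 5 genes lay below 0 and the median log2 fold change was -0.35. Pdha1, the catalytic alpha subunit whose phosphorylation inactivates the enzyme, read 8.08, 8.16, 8.03 and 8.10 on the PBS arrays and 7.69, 7.87, 7.58 and 7.81 on the hBD-2 arrays. Its groups thus did not overlap, with a log2 fold change of -0.35 (SE 0.0937, limma adjusted p = 0.0561).

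Dlat, the acetyltransferase core, differed by -0.43 on the log2 scale (limma adjusted p = 0.0718), and hBD-2 replicate 2 (7.84) lay above the lowest PBS array (7.80). Pdhb, the beta subunit of the same enzyme as Pdha1, differed by -0.30 (limma adjusted p = 0.137), with overlapping groups. Pdhx, which holds the dehydrogenase of the complex in place, differed by -0.36 (limma adjusted p = 0.1496). Its groups were separated by less than 0.01, since PBS replicate 4 and hBD-2 replicate 1 were both at 5.73. Dld, the lipoamide dehydrogenase that this complex shares with the oxoglutarate dehydrogenase complex, was at 8.35 ± 0.143 and 8.41 ± 0.160, with a 95% interval from -0.19 to 0.29.

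Of the 3 regulators of the complex on the list, 2 lay below 0 and 1 above. Sign did not follow role beyond the list, where the kinases Pdk1 and Pdk3 fell (log2 fold changes -0.38 and -0.92, given below). The phosphatases that activate the complex were on the lower side, Pdp1 by -0.49 (limma adjusted p = 0.0733) and Pdp2 by -0.40 on the log2 scale (limma adjusted p = 0.0876). Both overlapped through a single hBD-2 array. For Pdp1 that array was hBD-2 replicate 1, at 5.81 against 5.10 to 5.32 in the others, and for Pdp2 it was hBD-2 replicate 2, at 6.03. Without hBD-2 replicate 1 Pdp1 had a limma adjusted p of 0.00927, and without hBD-2 replicate 2 that of Pdp2 was 0.0411. Each of these omissions took away the array that overlapped. Neither gene passed with any other single array left out (highest limma adjusted p = 0.177 for Pdp1 and 0.192 for Pdp2).

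Pdk2, a kinase that inactivates the complex, was the highest of the list. It read 6.59, 6.48, 6.96 and 6.58 with PBS and 7.01, 7.10, 7.05 and 7.26 with hBD-2, so that every hBD-2 array lay above every PBS array and PBS replicate 3 came closest. The log2 fold change was 0.45 (SE 0.117, limma adjusted p = 0.0515), just short of the threshold. Pdk2 passed with quantile normalization repeated and with cyclic loess, where it was the 1 rising gene of the list and 1.16% and 1.13% of all genes rose. It passed in 6 of the 17 alternatives, 2 of them omissions of a single array. It did not pass with the replicate block (limma adjusted p = 0.0685) or without PBS replicate 2 (limma adjusted p = 0.140).

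Pcx, pyruvate carboxylase, which makes oxaloacetate directly from pyruvate, was at 4.03 ± 0.193 and 3.57 ± 0.429. Its log2 fold change of -0.46 (limma adjusted p = 0.175) stood beside the widest spread among the hBD-2 arrays, 3.03 to 3.98, and without hBD-2 replicate 3 it was -0.28. The arrays' lower quartiles were 3.62 to 3.78, so Pcx lay close to the floor of these values, where a fold change is understated.

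Citrate synthase, the enzyme that joins acetyl-CoA to oxaloacetate, fell. Cs read 9.47, 9.45, 9.27 and 9.44 with PBS and 8.997, 8.94, 8.62 and 8.96 with hBD-2, a fall of 1.44-fold (-0.53 on the log2 scale, SE 0.106, limma adjusted p = 0.0193). Replicate 3 was the lowest array in both groups, and the groups did not overlap. The call was lost without PBS replicate 1, 2 or 4 (highest limma adjusted p among these = 0.0650). Aco1, the cytosolic aconitase that doubles as an iron-sensing RNA-binding protein, was at 6.93 ± 0.106 and 6.44 ± 0.263, without overlap (log2 fold change -0.49, limma adjusted p = 0.0539).

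The isocitrate dehydrogenases ranged from the largest fall of the list to a gene whose groups overlapped. Idh1, the cytosolic and peroxisomal enzyme that makes NADPH, read 6.27, 6.33, 6.13 and 6.11 with PBS and 4.76, 5.25, 5.18 and 4.79 with hBD-2. The closest arrays of the groups were still 0.86 apart, and the fall was 2.32-fold (-1.22 on the log2 scale, SE 0.128, limma adjusted p = 0.000643). Among the 713 genes that fell, Idh1 ranked 35 by size. Leaving out any single array gave limma adjusted p-values of at most 0.00368.

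Idh2, the mitochondrial enzyme that makes NADPH by the same reaction, read 7.996, 7.85, 7.82 and 7.99 with PBS and 8.01, 7.80, 8.14 and 7.93 with hBD-2. Its groups overlapped throughout, and the 95% interval of the difference ran from -0.16 to 0.27. The 3 subunits of the NAD-linked enzyme of the cycle had log2 fold changes of -0.35 (Idh3a, the catalytic subunit), -0.18 (Idh3b) and -0.17 (Idh3g), with limma adjusted p-values of 0.0712, 0.279 and 0.301. Idh3a did not overlap between groups, while Idh3g did. Idh3b did not overlap either, but its groups were only 0.008 apart and its 95% interval ran from -0.38 to 0.02.

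The oxoglutarate dehydrogenase complex lay closest to 0. Ogdh, its decarboxylase, was at 9.16 ± 0.0655 and 9.08 ± 0.05001, and Dlst, its succinyltransferase core, at 7.55 ± 0.135 and 7.46 ± 0.0994. The 95% intervals ran from -0.26 to 0.11 for Ogdh and from -0.31 to 0.12 for Dlst. The sign for Ogdh turned with quantile normalization repeated or cyclic loess, where the difference was 0.03 and 0.01. Of the succinyl-CoA ligases, which make the nucleotide triphosphate of the cycle, the shared alpha subunit Suclg1 differed by -0.33 on the log2 scale (limma adjusted p = 0.158), with groups that were less than 0.01 apart, and by -0.22 without hBD-2 replicate 3. The GTP-forming beta subunit Suclg2 was at 7.28 ± 0.342 and 6.96 ± 0.214, and the ATP-forming Sucla2 at 5.79 ± 0.0527 and 5.75 ± 0.162.

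Succinate dehydrogenase, which is both a cycle enzyme and complex II of the respiratory chain, was lower with hBD-2 in all 4 subunits, without overlap between the groups in any of them. Sdhd, a membrane anchor, fell 1.52-fold (-0.60 on the log2 scale, SE 0.117, limma adjusted p = 0.0162). It read 8.92, 8.86, 8.85 and 8.92 with PBS and 8.47, 8.42, 7.95 and 8.31 with hBD-2, the PBS arrays being tightly grouped and hBD-2 replicate 3 standing lowest. The call of Sdhd was lost without PBS replicate 1 or 4 (highest limma adjusted p = 0.0543). Sdhc, the other anchor, was at 7.89 ± 0.0583 and 7.57 ± 0.0910 (log2 fold change -0.32, limma adjusted p = 0.0635).

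The catalytic subunits were close behind. Sdha, the flavoprotein that oxidises succinate, was at 6.78 ± 0.0992 and 6.31 ± 0.252 (log2 fold change -0.48, limma adjusted p = 0.0559). Sdhb, the iron-sulfur subunit, was at 9.47 ± 0.0649 and 9.13 ± 0.0963 (log2 fold change -0.34, limma adjusted p = 0.0539). Sdha, Sdhb and Sdhc passed with the variance trend and with the filter on mean level, and Sdha and Sdhb also without hBD-2 replicate 1.

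Of the last steps of the cycle, fumarase had an interval that included 0 and both malate dehydrogenases fell. Fh1, which hydrates fumarate to malate, was at 8.41 ± 0.141 and 8.30 ± 0.0463, with a 95% interval from -0.32 to 0.10. Mdh2, the mitochondrial enzyme that regenerates oxaloacetate, read 10.00, 10.03, 9.88 and 9.92 with PBS and 9.59, 9.54, 9.36 and 9.44 with hBD-2. It fell 1.39-fold (-0.48 on the log2 scale, SE 0.0912, limma adjusted p = 0.0151). Mdh1, its cytosolic counterpart, read 9.64, 9.60, 9.58 and 9.62 with PBS and 9.23, 9.18, 9.25 and 9.08 with hBD-2. It fell 1.34-fold (-0.42 on the log2 scale, SE 0.0844, limma adjusted p = 0.0182), and its PBS arrays spanned the narrowest range of the genes that fell. Without PBS replicate 1 or 2 neither gene passed, and Mdh1 was also lost without PBS replicate 4 or hBD-2 replicate 4 (highest limma adjusted p = 0.0634 for Mdh1 and 0.0591 for Mdh2).

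The aspartate transaminases link glutamate and oxoglutarate with oxaloacetate and aspartate. Got1, the cytosolic enzyme of this reaction, read 9.15, 9.19, 8.98 and 9.23 with PBS and 8.78, 8.72, 8.25 and 8.59 with hBD-2. It fell 1.47-fold (-0.56 on the log2 scale, SE 0.123, limma adjusted p = 0.0288). Its call was lost without PBS replicate 1, 2 or 4 and without hBD-2 replicate 3 or 4 (highest limma adjusted p = 0.0851). Got2, the mitochondrial enzyme of the same reaction, was at 10.97 ± 0.0750 and 10.63 ± 0.117, without overlap (log2 fold change -0.34, limma adjusted p = 0.0643).

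**Figure D3:**
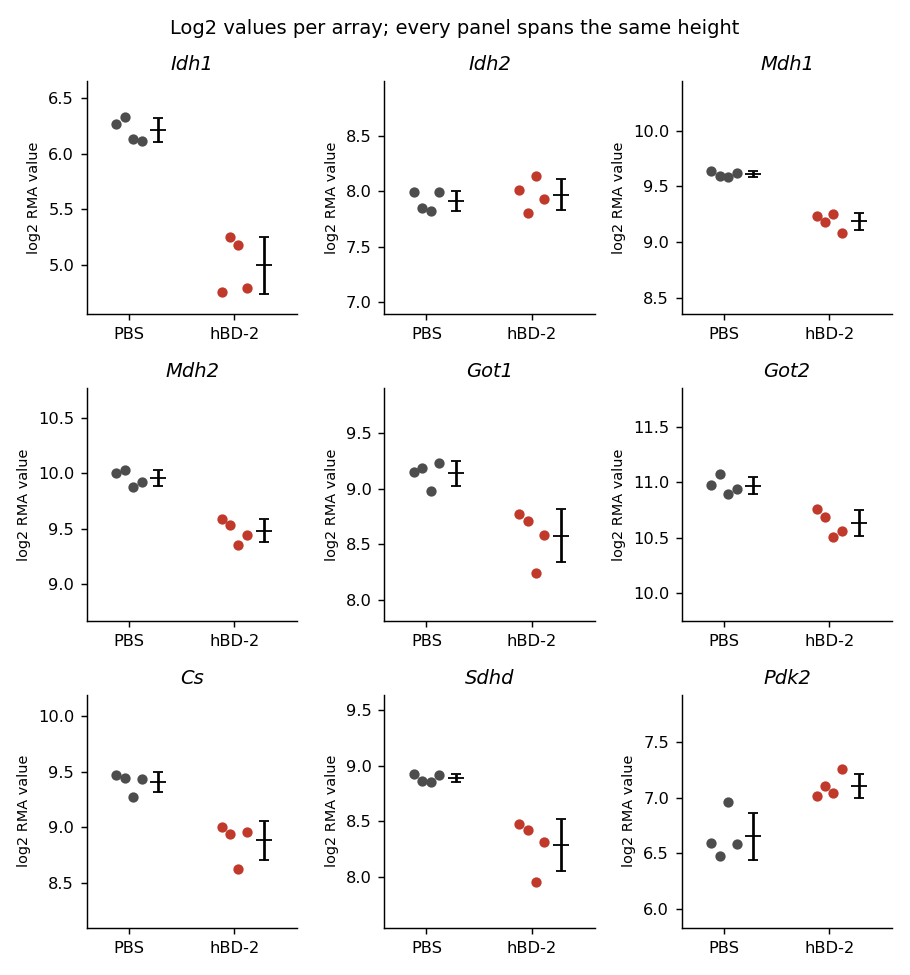
Log2 values on each of the 4 arrays per group for 3 pairs of isoenzymes and for Cs, Sdhd and Pdk2, with mean and SD beside the points and the same height of axis in every panel. Idh1 drops by 1.22 while the Idh2 groups overlap, Mdh1 and Mdh2 drop by 0.42 and 0.48, and Pdk2 lies higher with hBD-2 on every array.

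Whether partner enzymes changed unequally was tested on the difference of both genes on each array. The pairs were chosen with earlier results of these data known, which the p-values do not take into account. Idh1 minus Idh2 was -1.70 ± 0.148 with PBS and -2.97 ± 0.308 with hBD-2 (n = 4), without overlap (exact permutation test, two-sided, p = 0.0286; adjusted p = 0.0714 over the 5 pairs tested). No smaller p is possible with 4 arrays in each group. Got1 minus Got2 shifted by -0.22 without overlap, with the same p-values in the exact permutation test. With 5 pairs, an adjusted p under the threshold would have needed at least 3 pairs at the smallest p. Mdh1 minus Mdh2 shifted by 0.05 (exact permutation test, p = 0.514, adjusted p = 0.643, n = 4), Pdp1 minus Pdp2 by -0.09 (exact permutation test, p = 0.657) and Sucla2 minus Suclg2 by 0.29 (exact permutation test, p = 0.286, adjusted p = 0.476).

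Around the cycle, 37 of 41 further genes of the pathway were measured, and 5 fell and none rose, where 3.66% of all genes fell and 0.800% rose. Their median log2 fold change was -0.06, and at an unadjusted limma p below 0.05 there were 11 lower and 1 higher, where over all genes the shares were 12.8% and 9.44%. The largest fall was that of Me2, a mitochondrial malic enzyme that turns malate into pyruvate, from 8.32 ± 0.106 to 7.395 ± 0.313, or 1.90-fold (limma adjusted p = 0.00494). Slc25a1, the carrier that exports citrate to the cytosol, fell 1.82-fold, from 9.11 ± 0.109 to 8.25 ± 0.221 (limma adjusted p = 0.00261). Slc25a11, the carrier that exchanges oxoglutarate for malate, fell 1.37-fold (limma adjusted p = 0.0239). It no longer passed when any PBS array, or hBD-2 replicate 3 or 4, was left out.

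The pyruvate dehydrogenase kinases did not move together. Pdk3 fell 1.89-fold, from 6.70 ± 0.161 to 5.78 ± 0.328 (limma adjusted p = 0.00807). Pdk1 fell 1.30-fold (limma adjusted p = 0.0357), but lost its call with quantile normalization repeated, with cyclic loess and without any single array other than hBD-2 replicate 1. Pdk4 differed by 0.24 on the log2 scale (limma adjusted p = 0.378), beside 0.45 for Pdk2. None of the 7 measured genes of glutamine and amino acid exchange passed, Psat1 having the lowest log2 fold change at -0.49 (limma adjusted p = 0.157). The glutamine carriers Slc1a5, Slc38a1 and Slc38a2 were at -0.29, -0.24 and 0.07, and none of the 9 genes of lipoate synthesis, succinate dehydrogenase assembly and mitochondrial deacylation passed.

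The genes of the list had high signals, and genes of high signal as a whole read slightly lower on the hBD-2 arrays. By mean signal, 30 of the 31 genes were above the median of all genes. Genes between the percentiles 75 and 90 of level had a median log2 fold change of -0.08, with 64.6% below 0 and 7.93% falling, and the 11 genes of the list in that range had a median of -0.32, with 1 of them falling. Between the percentiles 50 and 75 also 1 of 9 fell, where 4.90% of all genes in that range did. Above the percentile 90 the median of all genes was -0.08, with 8.92% falling, and 4 of the 10 genes of the list there fell, with a median of -0.34. Quantile normalization brought the medians of all genes in these ranges to 0.01 and 0.00, and the median of the list to -0.25. Its 6 falling genes, the same ones, passed there too, and with cyclic loess (median of the list -0.27), while 2.67% and 2.95% of all genes fell. The part of the array distributions in these results was not tested further.

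**Figure D4:**
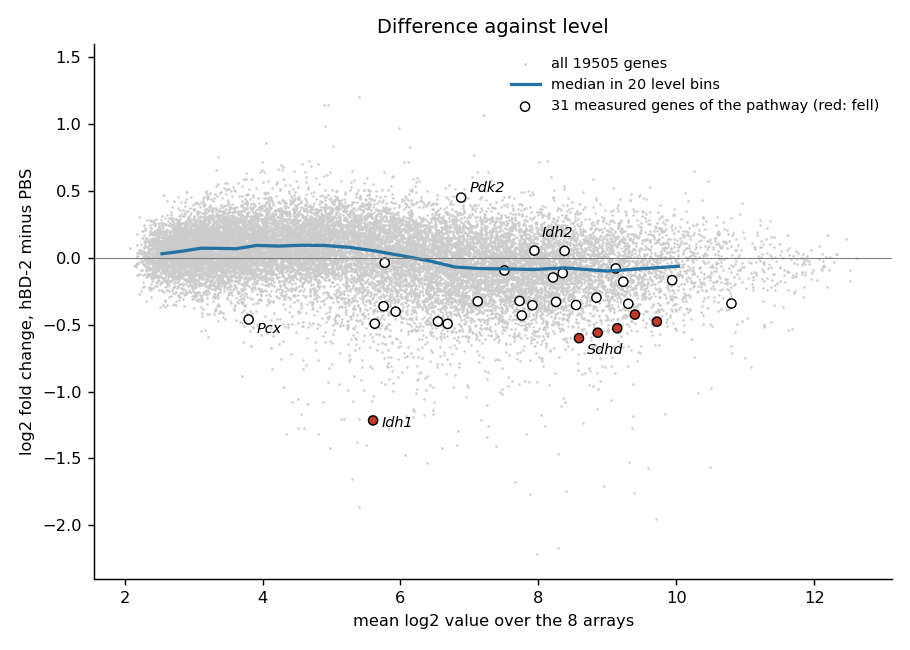
Log2 fold change against the mean log2 value over the 8 arrays for all 19505 genes (grey), the running median by level (line) and the 31 genes of the list (circles, red where the gene fell). The line lies slightly above 0 for dim genes and slightly below 0 for bright ones, and 28 of the 31 circles lie below 0.

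Single hBD-2 arrays pulled some of the means. Among the hBD-2 arrays, replicate 3 was the lowest in 16 of the 31 genes, and in 14 with quantile normalization. The like share over all genes was not counted, so this may be a trait of the whole array. Replicates 3 and 4 of hBD-2 had the narrowest interquartile ranges (3.45 each). The SD among hBD-2 arrays was larger than that among PBS arrays in 22 of the 31 genes, and in 59.8% of all genes.

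**Figure D5:**
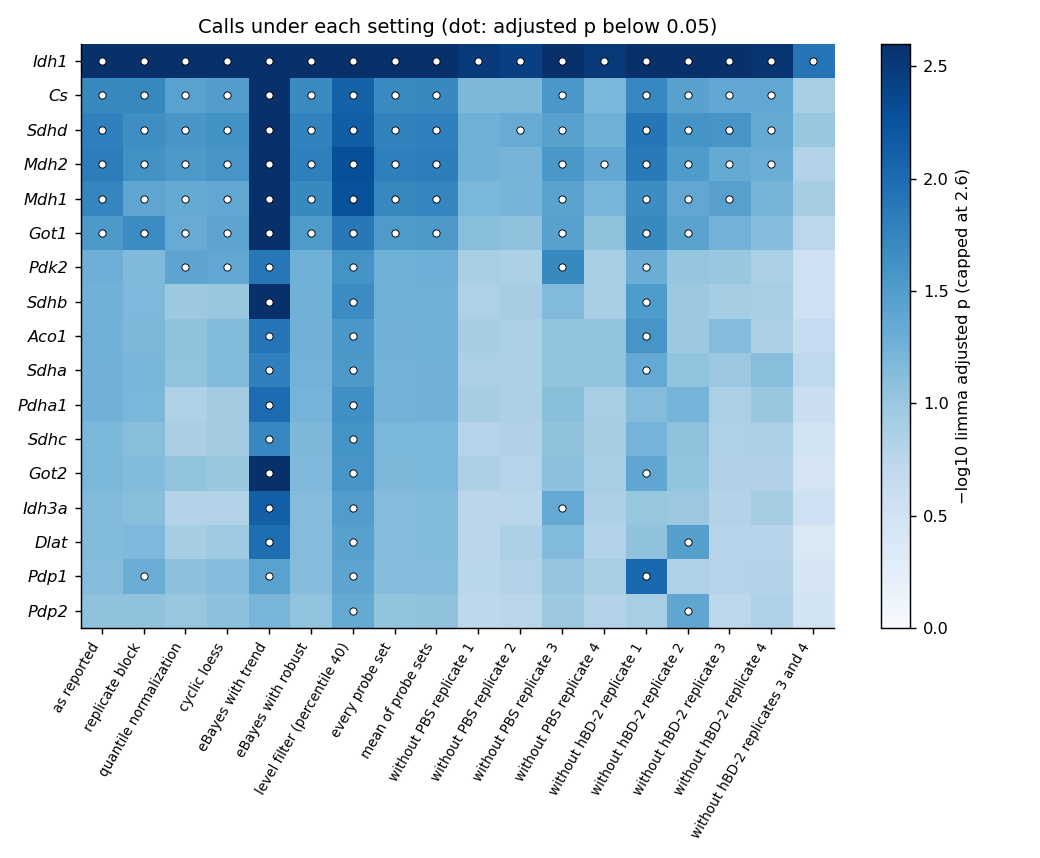
Limma adjusted p, as −log10, of the 6 genes that fell and the 11 with an adjusted p between 0.05 and 0.1, for the reported fit and 17 alternatives, with a dot where it was below 0.05. Idh1 has a dot throughout, and the column without PBS replicate 1 has a dot for Idh1 alone.

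Some markers of other spleen cells differed. B cell markers had a mean level per array of 4.59 to 5.60 with PBS and 4.65 to 6.41 with hBD-2, and none of the 6 measured passed. Replicates 2 and 4 carried the higher levels in both groups (5.50 and 5.60 with PBS, 6.26 and 6.41 with hBD-2), and the other arrays lay between 4.59 and 4.83. Cd79a, a chain of the B cell receptor complex, read 4.50, 6.597, 4.85 and 6.84 with PBS and 5.23, 7.86, 4.80 and 7.76 with hBD-2. With the mean B cell marker level of each array as a covariate, an alternative chosen after the data were seen, the same 6 genes of the list fell and Pdha1 with them (2.25% of all genes fell). Without replicates 2 and 4 of both groups, which leaves 2 arrays in each, no gene of the list passed in limma and 0.0410% of all genes fell. At an unadjusted limma p below 0.05, 11 of the 31 were lower there and none was higher, where 5.24% of all genes were lower. Idh1 differed there by -1.23 on the log2 scale (limma adjusted p = 0.107).

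Of 6 mast cell and basophil markers 2 rose (Cpa3 and Fcer1a), with a mean level of 4.26 to 4.37 and 4.60 to 5.22, and 1 of 3 erythroid markers rose (Klf1), with a mean level of 4.68 to 4.87 and 4.93 to 5.09. Of 6 macrophage and monocyte markers Itgam fell (mean level of the list 3.74 to 4.03 and 3.63 to 4.03), and of 4 natural killer cell markers Klrc2 (3.80 to 4.05 and 3.53 to 3.89). None of the 6 dendritic cell markers (3.52 to 3.78 and 3.66 to 3.90) and 5 neutrophil markers (4.38 to 4.58 and 4.51 to 4.71) passed. Many of these levels lay near the arrays' lower quartiles. In bulk samples, fewer cells of a type and less RNA per cell cannot be told apart, and beyond the B cell marker fits the part of cell composition in the falls above was not tested.

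Sequence around the starts of the genes was searched for letters tied to factors of metabolic gene control, on both strands of 300 bases from RefSeq (build GRCm38.p6), in 28 of the measured genes with 37 starts. The hypoxia response core (ACGTG or GCGTG) was found at 26 of the 37 starts, or 70.3%, and at 43.8% of all 32851 starts in the table. The E-box CACGTG, which contains the former, was found at 16.2% and 7.15%, the motif of NRF1, a factor of mitochondrial genes, at 10.8% and 4.60%, and the oestrogen-related receptor motif TCAAGGTCA at 1 start of the list (Sdhd) and 0.423% of all. The median GC content was 61.3% for the starts of the list and 52.7% for all, so these shares are a description of unlike sequences. Counted by gene, 20 of the 28 held the hypoxia response core at 1 or more of their starts. Of the 6 genes that fell, 5 held it (Got1, Idh1, Mdh1, Mdh2 and Sdhd) and Cs did not. Shown here are the gene with the largest fall and the falling gene with the NRF1 motif, each as the 250 bases before the start with motif matches in capitals. They lie on the minus strand, at chr1:65179143-65179392 for Idh1, the one of its pair of starts with a match, and at chr9:50603850-50604099 for Sdhd.
Idh1: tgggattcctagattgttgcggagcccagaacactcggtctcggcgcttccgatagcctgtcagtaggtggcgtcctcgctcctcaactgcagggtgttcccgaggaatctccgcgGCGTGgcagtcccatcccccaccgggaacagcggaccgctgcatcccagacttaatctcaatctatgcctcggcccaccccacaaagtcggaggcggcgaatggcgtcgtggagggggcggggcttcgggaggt
Sdhd: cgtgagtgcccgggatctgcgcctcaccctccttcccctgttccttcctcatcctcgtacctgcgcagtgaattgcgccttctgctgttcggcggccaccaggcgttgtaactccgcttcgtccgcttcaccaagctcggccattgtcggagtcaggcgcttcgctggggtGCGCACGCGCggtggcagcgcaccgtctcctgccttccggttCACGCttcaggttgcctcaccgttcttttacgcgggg
In Idh1 the capitals mark 1 hypoxia response core. In Sdhd the longer stretch is the NRF1 motif, which overlaps a hypoxia response core read on the other strand, and the shorter stretch is a further core on that strand. The oestrogen-related receptor motif of Sdhd lies after the start and is not in the printed stretch. A match of letters is not evidence that a factor binds there.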

How the data were processed

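The authors deposited log2 expression values of 22203 probe sets on 8 arrays. Per the submitters' processing notes these came from oligo and RMA (background correction, normalization between arrays and probe summary), their versions, settings and annotation build being unstated in these sources. The platform's annotation named 19572 probe sets. For genes with several, the probe set with the highest mean was kept, leaving 19505 genes, with none left out for being dim. The number of arrays limits the precision, and no depth applies.

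The groups were compared with limma 3.58.1 in R 4.3.3 (lmFit, eBayes, no block), two-sided, p-values being adjusted (Benjamini-Hochberg) across all genes tested, and single values with exact permutation tests. The fit was tested on simulated data, with falls seeded in 50 genes at each size. It recovered 4% of them at 1.25-fold, 64% at 1.5-fold and 98% at 2-fold, so small falls were mostly missed there. The simulation held fewer changed genes than the 869 called in the data, so these shares need not hold for the list. All listed genes are named, with further pathway genes where they passed. The genes, lists, pairs and motifs were chosen with earlier results of these data known. Alternatives were the replicate block, normalization, variance model, level filter, probe set choice and omitted arrays, and, chosen after the data were seen, a B cell marker covariate and the omission of replicates 2 and 4 of both groups.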

Additional observations from a re-analysis of the deposited data

Results flagged for a closer look

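Single arrays stood apart from the other 3 of their group in 4 of the 62 sets of 4 arrays (31 genes in 2 groups), and chance gives about 1 in 20. For Cs, the lowest array was replicate 3 in both groups, at 9.27 with PBS (next 9.44) and 8.62 with hBD-2 (next 8.94). Sdhb was highest on hBD-2 replicate 1, at 9.28, where the other 3 lay between 9.08 and 9.09. Pdhx was lowest on hBD-2 replicate 4, at 5.20, with the next array at 5.65.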

How the results depend on the processing

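Over all genes, 869 changed (713 lower and 156 higher). With a variance trend the count was 2032 (1558 lower, 474 higher), and 1541 (1192 lower, 349 higher) with genes below the percentile 40 of level left out, where fewer genes were tested. Leaving out 1 array gave 312 to 1396 genes, 279 to 1074 lower and 33 to 322 higher, and leaving out hBD-2 replicates 3 and 4 together gave 128 (112 and 16). In the list, 6 genes fell, 17 with the trend, 16 with the level filter, 1 to 11 without 1 array and 1 without hBD-2 replicates 3 and 4. The count that rose was 0, and 1 (Pdk2) with quantile normalization, cyclic loess, the trend or the level filter, and 0 to 1 without 1 array. Of the further pathway genes 5 fell, 9 with the trend, 3 to 6 without 1 array and 1 without hBD-2 replicates 3 and 4. Some of these fits held fewer genes or arrays, and why the counts differed was not tested. The list's median stayed between -0.38 and -0.25 in 17 alternatives, and no called gene changed sign in any of them. Of the alternatives chosen after the data were seen, the B cell marker covariate gave 506 genes (438 lower, 68 higher) and 3 falling further genes. Without replicates 2 and 4 of both groups, 8 genes changed (8 lower, 0 higher), with 0 of the list and 0 of the further genes, and the list's median was -0.30.

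Deviations from the group means correlated at 0.18, 0.06, 0.16 and 0.00 between arrays of the same number, 1 to 4. Between arrays of different numbers the correlation ran from -0.15 to 0.09. The values for numbers 1 and 3 were thus the highest, but not every array correlated best with its own number. B cell markers were high on replicates 2 and 4 of both groups. Both are signs that the numbers may pair the arrays, which these values do not settle. With the replicate block, 857 genes changed (698 lower, 159 higher), 7 of the list fell, Pdp1 being added, and 4 of the further genes, Pdk1 being lost. Over all 17 alternatives together, and not in the block alone, calls were compared for the 31 measured genes of the list and the 5 further genes that fell. Counting each gene in each alternative, there were 36 gains and 41 losses of a call against 534 without either. Without 1 array, Idh1 minus Idh2 shifted by -1.41 to -1.18 and Got1 minus Got2 by -0.25 to -0.15, while Pdp1 minus Pdp2 (-0.33 to 0.10) and Mdh1 minus Mdh2 (-0.01 to 0.07) changed sign. Sucla2 minus Suclg2 ranged from 0.13 (without hBD-2 replicate 2) to 0.42 (without hBD-2 replicate 1). Paired by number, no pair can reach a p under 0.125 (exact sign-flip test). The quantile and loess alternatives start from values already normalized, and dim genes such as Pcx are limited by the floor.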

Other observations

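Both groupings here were made after the values were seen and carry no test. Of the 4 cytosolic enzymes of the list (Aco1, Idh1, Mdh1 and Got1), 3 fell, all 4 were lower without overlap between the groups, and the median log2 fold change was -0.53. Of the 27 measured mitochondrial genes 3 fell (Cs, Sdhd and Mdh2), 12 were lower and 1 higher without overlap, and the median was -0.33. Over all genes 3.66% fell, 9.36% were lower without overlap and 5.51% higher. Whether the compartments differ was not tested.

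The malate-aspartate shuttle moves reducing equivalents from the cytosol into mitochondria with a pair of malate dehydrogenases, a pair of transaminases and their carriers. Of its 7 measured genes 4 fell (Mdh1, Mdh2, Got1 and Slc25a11), against 3.66% of all genes. Got2 did not overlap between the groups, and the aspartate and glutamate carriers Slc25a12 and Slc25a13 differed by -0.04 and -0.25 on the log2 scale (limma adjusted p = 0.853 and 0.356).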
